A study of Homo sapiens with 9 samples.

Results

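The comparison described here sets both knockdowns of the H/ACA complex, siDyskerin and siGAR1, together against the control siRNA, siControl. It holds all 9 libraries of the series, 6 of them from knockdown cells and 3 from control cells, and each knockdown group had equal weight. The common response is the set of genes that passed in this pooled comparison at an adjusted p under 0.01, moved the same way in both knockdowns, and had an adjusted p under 0.05 in each knockdown alone. It had 557 genes of 18444 tested.

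All cells were U2OS, an established human osteosarcoma line, and nuclear RNA was sequenced 48 hours after transfection. The siDyskerin group received 15 nM of an siRNA against DKC1, the gene of dyskerin, the siGAR1 group received 15 nM of an siRNA against GAR1, and the siControl group received 15 nM of a control siRNA. Each group had 3 biological replicates. In the study's reagent list the control siRNA came from another supplier than both knockdown siRNAs. Both knockdown groups therefore share the loss of an H/ACA protein and the change of siRNA product, and in the pooled comparison these cannot be told apart. A smaller number of nuclei and less RNA in each nucleus cannot be told apart either, since these were bulk libraries scaled to a common depth.

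The H/ACA complex converts uridine to pseudouridine at sites chosen by a box H/ACA guide RNA. Dyskerin is the catalytic subunit, and NHP2, NOP10 and GAR1 complete the core. Small nucleolar guides direct the complex to ribosomal RNA, small Cajal body guides direct it to spliceosomal RNA, and the telomerase RNA carries the same box. Dyskerin, NHP2 and NOP10 are needed for the stability of the guide RNAs, while GAR1 joins the complex late.

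The reads summed to between 48838756 and 90698675 per library. These sums count a read once for each transcript of a gene that it fits, so that they do not compare a gene with another gene. They were used to compare a gene between groups, where a shift in transcript usage can also move the sum. The osteoblast markers RUNX2, COL1A1, SPARC, ALPL and SPP1 were detected in every library, while COL1A2 and SP7 were at or near 0 and BGLAP had 1.23 to 17.3 normalised counts. Of the blood markers CD3E and HBB were at 0 in all libraries, LYZ had at most 0.95 normalised counts and PTPRC had 2.45 to 32.1. The summed epithelial markers were 78042 to 78930 normalised counts in siDyskerin, 64720 to 77445 in siGAR1 and 51922 to 59706 in siControl, nearly all from KRT8 and KRT18, and their part in the results below was not tested.

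The silenced genes checked the labels. DKC1 (ENSG00000130826.19; GRCh38, chromosome X, 154762742 to 154777689, plus strand) had 3075, 3124 and 3099 normalised counts in siDyskerin, 26060, 24976 and 22628 in siGAR1, and 20937, 22716 and 20777 in siControl. GAR1 (ENSG00000109534.17; chromosome 4, 109815510 to 109824740, plus strand) had 714, 718 and 710 normalised counts in siDyskerin, 92.3, 83.9 and 115 in siGAR1, and 598, 594 and 664 in siControl. Each siRNA thus left its own target at 14.4% (DKC1) and 15.7% (GAR1) of the siControl mean and did not lower the other target. Both genes passed in the pooled comparison, with log2 fold changes of -1.30 for DKC1 and -1.24 for GAR1, because each fell far in 1 of the knockdowns, and neither belongs to the common response. When the 6 knockdown libraries were fitted as 1 group, the adjusted p was 0.76 for DKC1 and 0.69 for GAR1. The pooled log2 fold changes of the other core genes were -0.14 for NHP2 (standard error 0.06, adjusted p = 0.18) and 0.04 for NOP10 (standard error 0.07, adjusted p = 0.78), and their groups overlapped. The sign for NOP10 turned to -0.04 without siControl replicate 3.

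**Figure D1:**
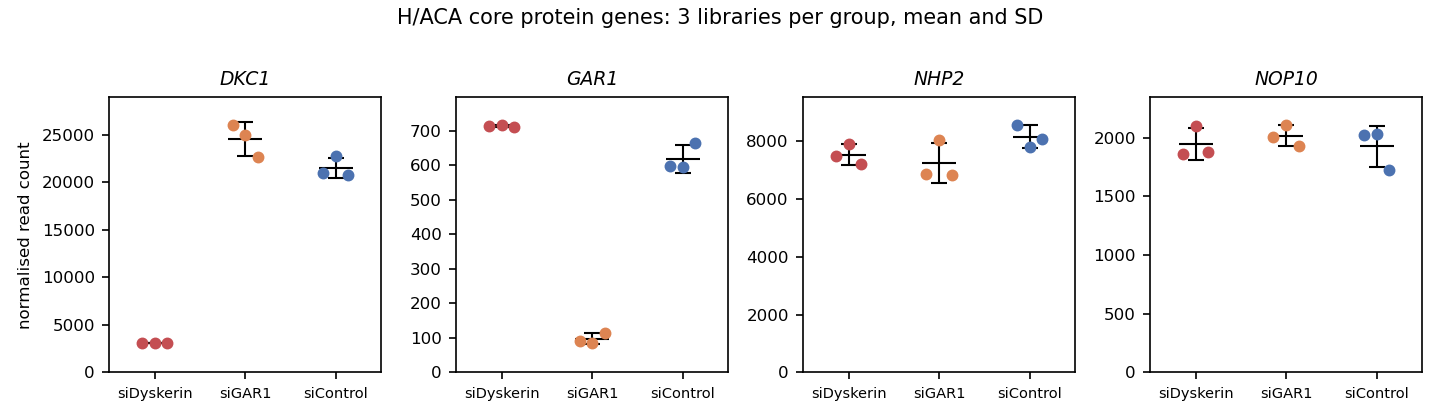
Normalised read counts (linear axis from 0) of the 4 H/ACA core genes in siDyskerin, siGAR1 and siControl; points are single libraries, the horizontal bar is the mean and the whiskers are the SD (n = 3). DKC1 is low only in siDyskerin (3075 to 3124) and GAR1 only in siGAR1 (83.9 to 115), while NHP2 and NOP10 overlap between the groups.

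In the pooled comparison 441 genes passed as higher (2.39% of the genes tested) and 493 as lower (2.67%). With a threshold of 1 on the absolute log2 fold change, 35 were higher (0.19%) and 10 lower (0.0542%). The common response held 333 higher genes (1.81%) and 224 lower genes (1.21%). Its changes were mostly small. The median log2 fold change was 0.52 over the higher genes (0.24 to 3.66) and -0.46 over the lower genes (-2.24 to -0.24), beside 0.0016 over all genes tested, and 130 higher and 64 lower genes changed by more than 1.5-fold. In 555 of the 557 genes all 6 knockdown libraries lay on one side of all 3 siControl libraries, which the rule that chose them favours; over all genes tested this held for 6.03% above and 5.71% below siControl. The 2 exceptions were KRT17 and ENSG00000248112. By class, 537 genes of the common response were protein-coding, 17 long noncoding and 3 pseudogenes. Of the 205 short noncoding RNA genes tested, 0 belonged to it in edgeR and 2 in DESeq2. In the pooled comparison in edgeR 55 of the 205 had an unadjusted p under 0.05. Over all 18444 genes tested 4718 had such a p, and 916 were in the common response by DESeq2. Of all genes tested, 9285 had a pooled log2 fold change above 0 and 9159 below 0. With the 6 knockdown libraries fitted as 1 group, whose spread then includes the difference between the knockdowns, 162 genes passed as higher and 66 as lower, and all of them passed in the pooled comparison too. Of the 68 genes named here by rule from the common response, 30 had an adjusted p of 0.01 or more in that fit, between 0.0105 (PIH1D1) and 0.106 (CERK). Among them were RPUSD3 (0.0333), POLR1F (0.013), EIF4EBP2 (0.0128), EEF1D (0.0137), TNFAIP2 (0.0132), H3C4 (0.0136), RRM2 (0.0148), MDM2 (0.0223) and GADD45A (0.0238).

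The numbers of passing and of common response genes were lower without any 1 siControl library, which also leaves fewer control replicates. Without siControl replicate 1, 2 or 3, 277, 234 and 220 genes passed as higher and 254, 261 and 227 as lower. The common response then had 229, 192 and 188 higher genes and 121, 138 and 108 lower genes. Without siDyskerin replicate 2 it had 144 lower genes. Genes lower past the threshold of 1 numbered 17 without siDyskerin replicate 3, and 19 each without siGAR1 replicate 1 and without siGAR1 replicate 3.

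Among the genes with a mean of at least 1 log2 CPM and separated groups, 14 were taken at each end of the pooled change. EPHA4, a receptor tyrosine kinase for ephrins, was the highest (ENSG00000116106.12; chromosome 2, 221418027 to 221574202, minus strand). It had 1594, 1625 and 1730 normalised counts in siDyskerin, 1340, 1235 and 1161 in siGAR1, and 549, 465 and 444 in siControl. Its log2 fold change was 1.55 (standard error 0.09, adjusted p = 3.5e-07), with 1.76 in siDyskerin and 1.35 in siGAR1. The lowest knockdown library (1161) had far more counts than the highest control library (549).

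SMIM15, which encodes a small membrane protein (chromosome 5, 61157704 to 61162468, minus strand), had 1582, 1713 and 1667 normalised counts in siDyskerin, 1720, 1801 and 1635 in siGAR1, and 577, 692 and 654 in siControl. The knockdowns were alike for this gene, at 1.37 and 1.42 on the log2 scale, and the pooled change was 1.40 (standard error 0.08, adjusted p = 3.5e-07). The difference between the knockdowns was -0.06 (standard error 0.08, adjusted p = 0.74). EFR3B, which helps to place a phosphatidylinositol kinase at the plasma membrane, had 5219, 5133 and 4671 normalised counts in siDyskerin, 4704, 4556 and 4470 in siGAR1, and 2432, 2222 and 2273 in siControl. PRLR, the prolactin receptor, had 2069, 2089 and 2088 in siDyskerin, 1907, 1933 and 1910 in siGAR1, and 952, 952 and 1040 in siControl. For EFR3B and PRLR the spread within a group was far below the gap to the control, and the log2 fold changes were 1.05 (standard error 0.06) and 1.03 (standard error 0.06).

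RNF43, CLDN1 and RIC3 were also among the 14 highest. RNF43, a ubiquitin ligase that removes Wnt receptors, had 344, 354 and 372 normalised counts in siDyskerin, 246, 290 and 438 in siGAR1, and 175, 109 and 104 in siControl. The siGAR1 libraries were the most spread for this gene. CLDN1, a claudin of tight junctions, had 354, 370 and 392 in siDyskerin, 352, 352 and 332 in siGAR1, and 171, 167 and 163 in siControl. RIC3, a chaperone of nicotinic acetylcholine receptors, had 209, 278 and 262 in siDyskerin, 345, 271 and 391 in siGAR1, and 113, 132 and 149 in siControl. The pooled log2 fold changes were 1.37 for RNF43, 1.10 for CLDN1 and 1.15 for RIC3, with adjusted p values of 0.00068, 1.1e-05 and 0.00026. SNCB (beta-synuclein) and TMEM40, a transmembrane protein, were higher at 1.10 and 1.35. SNCB had an adjusted p of 0.014 when the 6 knockdown libraries were 1 group.

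PTX3, a secreted pentraxin of innate immunity, had 1111, 1089 and 950 normalised counts in siDyskerin, 1453, 1327 and 1026 in siGAR1, and 477, 552 and 523 in siControl. TRAF1, an adaptor of tumour necrosis factor receptors, had 1041, 1037 and 991 in siDyskerin, 1041, 1068 and 822 in siGAR1, and 436, 480 and 495 in siControl. CCN3, a matrix-associated signalling protein, had 249, 264 and 266 in siDyskerin, 200, 251 and 302 in siGAR1, and 130, 128 and 98.2 in siControl. Their pooled log2 fold changes were 1.16, 1.09 and 1.09. In all of them the lowest knockdown library was well above the highest control library.

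**Figure D2:**
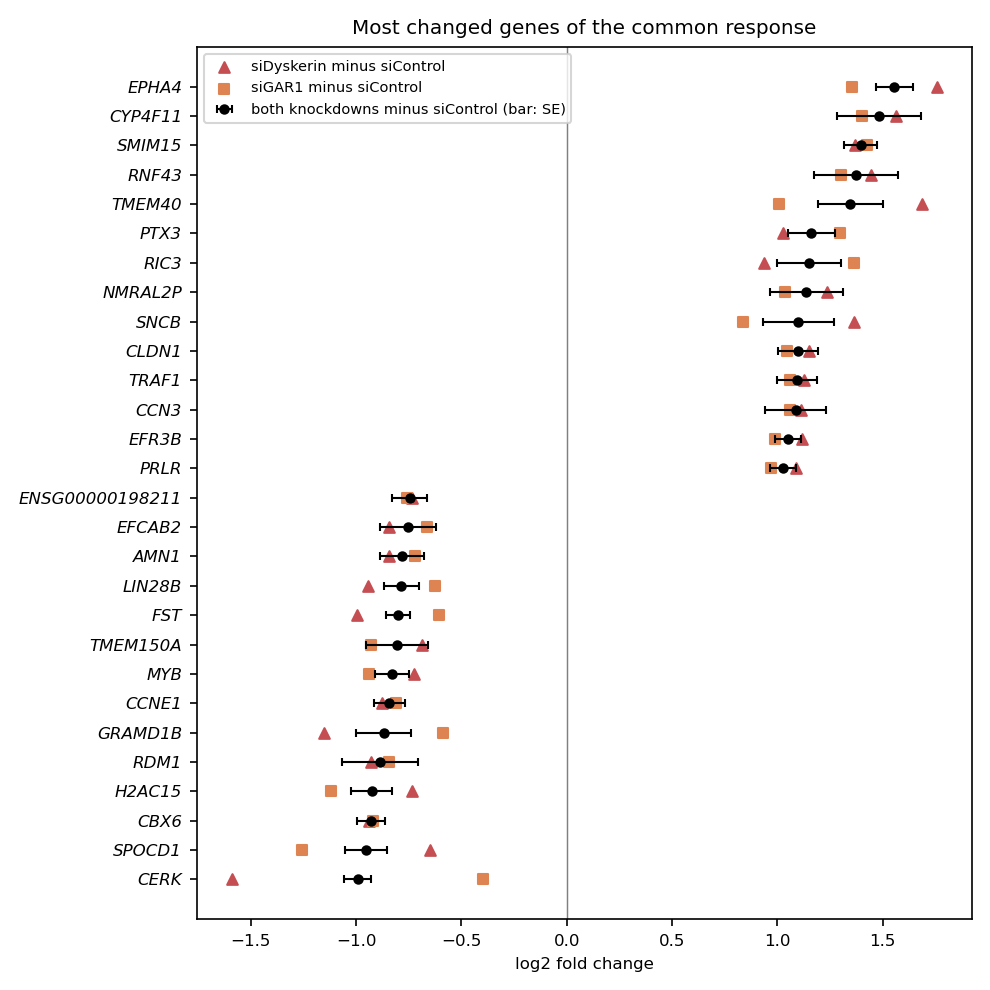
Log2 fold changes of the 14 highest and 14 lowest genes of the common response with a mean of at least 1 log2 CPM; black points with bars are the pooled change and its standard error, triangles are siDyskerin minus siControl and squares siGAR1 minus siControl. All symbols of a gene lie on one side of 0, which the rule of the common response requires. CERK has the widest gap between the knockdowns (-1.59 and -0.40).

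The 14 lowest genes fell by 0.75 to 0.99 on the log2 scale. CBX6, a chromobox protein of Polycomb complexes (ENSG00000183741; chromosome 22), had 4821, 3983 and 4052 normalised counts in siDyskerin, 4302, 4449 and 4268 in siGAR1, and 8508, 7605 and 8505 in siControl. Its log2 fold change was -0.93 (standard error 0.07, adjusted p = 2.5e-06), and the knockdowns were at -0.94 and -0.92. MYB, a transcription factor of proliferating progenitor cells, had 884, 1013 and 873 normalised counts in siDyskerin, 722, 897 and 778 in siGAR1, and 1523, 1472 and 1597 in siControl. LIN28B, an RNA-binding protein that blocks let-7 maturation, had 1143, 1224 and 1160 in siDyskerin, 1483, 1632 and 1285 in siGAR1, and 1983, 2435 and 2379 in siControl. MYB fell by 0.83 and LIN28B by 0.79 on the log2 scale.

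CERK, the ceramide kinase, was lowest of the 28 genes at -0.99 (adjusted p = 1.2e-06), but unevenly. It had 798, 798 and 791 normalised counts in siDyskerin, 1719, 1984 and 1754 in siGAR1, and 2527, 2295 and 2363 in siControl. FST, follistatin, which binds activin, had 1205, 1254 and 1259 in siDyskerin, 1631, 1569 and 1668 in siGAR1, and 2492, 2422 and 2494 in siControl. GRAMD1B, which moves cholesterol from the plasma membrane to the endoplasmic reticulum, was at -1.15 in siDyskerin and -0.59 in siGAR1, and SPOCD1, which takes part in piRNA-directed DNA methylation in mouse, was at -0.65 and -1.26. With the 6 knockdown libraries as 1 group the adjusted p was 0.106 for CERK, 0.0105 for SPOCD1 and 0.025 for GRAMD1B. AMN1 was lower at -0.78 (adjusted p = 0.0003). The changes of RDM1, TMEM150A and EFCAB2 depended on single libraries. RDM1, at -0.89, had an adjusted p of 0.0119 and 0.0404 without siControl replicate 2 or 3, 0.0118 and 0.0108 without siDyskerin replicate 1 or 2, and 0.0137 without siGAR1 replicate 2. TMEM150A, at -0.81, had 0.0179 and 0.0156 without siControl replicate 1 or 3. EFCAB2, at -0.75, had 0.0203 without siControl replicate 3 and 0.0976 with 1 transcript per gene. The locus ENSG00000198211 on chromosome 16, at -0.75, overlaps MC1R and TUBB3, both at -0.74, and these entries share reads, so that they are a single observation.

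The NRF2 targets held the largest share of higher genes among the lists with at least 10 tested members. NRF2 is the transcription factor that answers oxidative and electrophilic stress by inducing genes of glutathione synthesis and detoxification. Of 28 targets tested, 7 were higher in the common response (25%) and 0 lower, against 1.81% and 1.21% of all genes. The median was 0.29, and 26 of 28 had a log2 fold change above 0, against 9285 of all 18444 genes. The list median was 0.41 in siDyskerin and 0.14 in siGAR1. This list, like all gene lists below, was drawn up with results of these data known and is no independent evidence of its direction.

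HMOX1, haem oxygenase (ENSG00000100292; chromosome 22), had 2048, 1880 and 1772 normalised counts in siDyskerin, 1890, 2121 and 1668 in siGAR1, and 1131, 1056 and 990 in siControl. Its log2 fold change was 0.84 in each knockdown and in the pooled comparison (standard error 0.09, adjusted p = 4.2e-05). GCLM, the modifier subunit of the enzyme that limits glutathione synthesis, had 2101, 2123 and 2085 in siDyskerin, 1978, 1993 and 1871 in siGAR1, and 1328, 1422 and 1532 in siControl, a change of 0.51 (standard error 0.06). NQO1, a quinone reductase, had 15609, 16173 and 15832 in siDyskerin, 12840, 14129 and 12999 in siGAR1, and 11410, 11842 and 11063 in siControl, a change of 0.35 (standard error 0.05). All 3 genes were separated from the control in every knockdown library, and HMOX1 was alike in both knockdowns whereas NQO1 had its highest counts in siDyskerin (difference 0.25, adjusted p = 0.013).

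CYP4F11, a cytochrome P450 that hydroxylates fatty acids, had 503, 383 and 389 normalised counts in siDyskerin, 268, 476 and 398 in siGAR1, and 184, 114 and 130 in siControl. Its change of 1.48 had a large standard error (0.20), and reads may be shared with the other CYP4F genes nearby. TRIM16L (chromosome 17, ENSG00000291110.1), which has a second identifier at the same locus and a close paralog in TRIM16, had 6112, 6081 and 6117 in siDyskerin, 4472, 4560 and 4691 in siGAR1, and 2928, 2940 and 2615 in siControl. It rose by 0.90 (standard error 0.06, adjusted p = 1.2e-06), more in siDyskerin (1.11) than in siGAR1 (0.69). The pseudogene NMRAL2P had 170, 217 and 204 in siDyskerin, 128, 208 and 179 in siGAR1, and 71.1, 94.2 and 85.9 in siControl. AKR1C2, an aldo-keto reductase with near-identical relatives, was hardly detected, with 12.3, 21.9 and 14.1 counts in siDyskerin, 13.1, 12.1 and 7.4 in siGAR1, and 0, 0 and 3.68 in siControl. SLC7A11, the cystine transporter, passed in the pooled comparison at 0.62 but was at 1.09 in siDyskerin and 0.16 in siGAR1, so that it was not part of the common response, and AKR1C3 passed at 0.80 with 1.07 in siDyskerin and 0.53 in siGAR1.

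**Figure D3:**
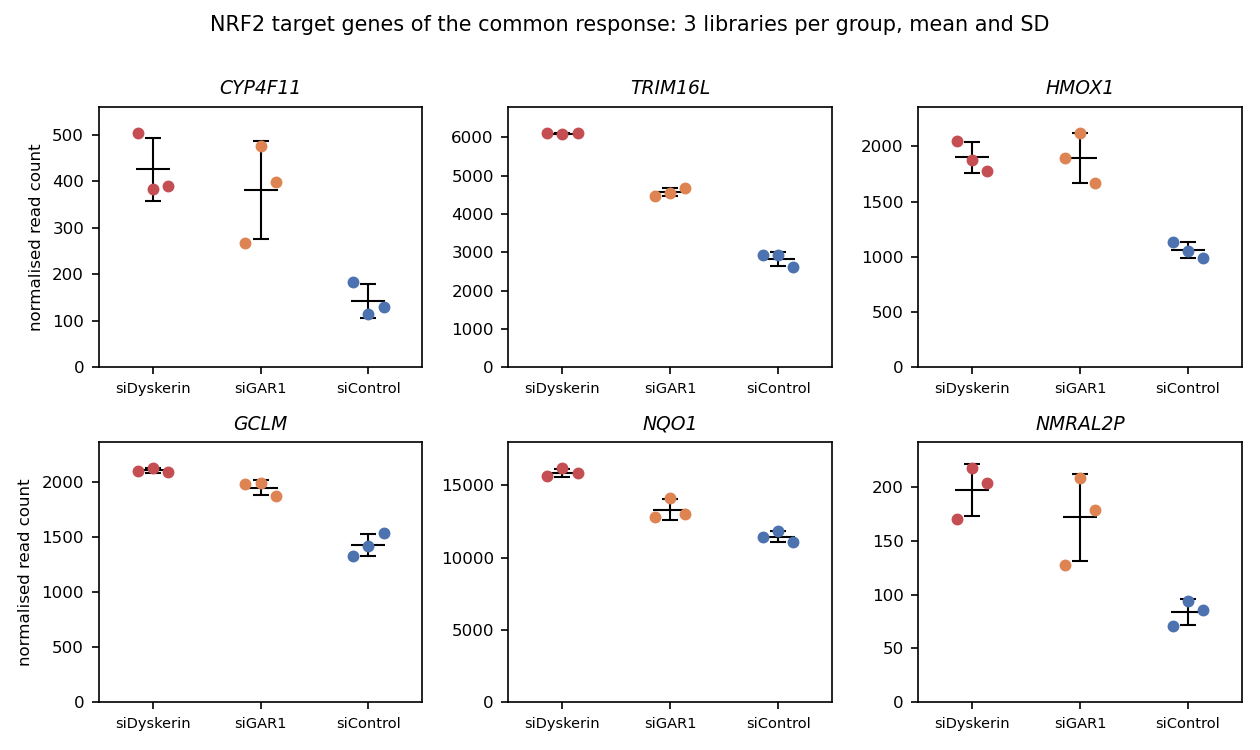
Normalised read counts (linear axes from 0) of 6 NRF2 targets of the common response in siDyskerin, siGAR1 and siControl; points are libraries, bars are means and whiskers SD (n = 3). In each panel all 6 knockdown libraries are above the 3 siControl libraries, with HMOX1 at 1668 to 2121 against 990 to 1131.

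The stretch before the start site of GCLM and CYP4F11 is shown because both hold the core of the antioxidant response element, TGACNNNGC, which NRF2 binds together with small MAF proteins. The capitals mark the match, which lies on the opposite strand in both, so that it reads as the reverse complement here. The match starts 34 bases before the start site in GCLM and 156 bases before it in CYP4F11. The sequences are the 250 bases before the RefSeq start on GRCh38.p14, on the strand of the gene, at chr1:93909431-93909680 (GCLM, minus strand) and chr19:15934868-15935117 (CYP4F11, minus strand).
GCLM: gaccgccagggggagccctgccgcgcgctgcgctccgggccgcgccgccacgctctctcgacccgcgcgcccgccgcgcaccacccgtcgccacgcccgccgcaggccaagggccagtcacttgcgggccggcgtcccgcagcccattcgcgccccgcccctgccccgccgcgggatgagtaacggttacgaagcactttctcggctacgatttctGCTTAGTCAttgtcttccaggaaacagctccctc
CYP4F11: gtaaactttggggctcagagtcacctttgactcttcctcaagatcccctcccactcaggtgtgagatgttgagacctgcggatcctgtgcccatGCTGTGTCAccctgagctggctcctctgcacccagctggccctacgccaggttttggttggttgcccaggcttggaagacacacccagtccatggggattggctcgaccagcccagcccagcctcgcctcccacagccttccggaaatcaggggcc
The core was about as frequent in the common response as in all promoters. It was found on either strand in 12.1% of 256 higher genes and 12.3% of 179 lower genes with a RefSeq promoter, against 11.7% of 11219 protein-coding genes tested. The AP-1 motif TGACTCA was in 1.56%, 2.23% and 2.62%, the NF-kB motif in 0.391%, 0% and 0.544%, and the amino acid response motif TGATGNAAT in 0.391%, 0% and 0.481%, each of the higher, the lower and all genes.

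Genes of the G1/S transition are induced by E2F factors as cells commit to DNA replication. Of 30 tested, 5 were lower in the common response (16.7%, against 1.21% of all genes) and 0 higher, 28 had log2 fold changes below 0, and the median was -0.13. CCNE1, cyclin E1, which drives entry into S phase (ENSG00000105173; chromosome 19), had 4312, 4678 and 4019 normalised counts in siDyskerin, 4750, 4978 and 3903 in siGAR1, and 8326, 8010 and 7546 in siControl. Its log2 fold change was -0.84 (standard error 0.08, adjusted p = 1.2e-05), -0.88 in siDyskerin and -0.81 in siGAR1. The highest knockdown library had 4978 counts and the lowest control library 7546.

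E2F1, the founding member of the E2F family, had 385, 324 and 324 normalised counts in siDyskerin, 282, 374 and 387 in siGAR1, and 549, 509 and 516 in siControl. E2F2 had 259, 221 and 232 in siDyskerin, 240, 252 and 297 in siGAR1, and 425, 355 and 384 in siControl. RRM2, the small subunit of ribonucleotide reductase, had 21855, 23213 and 22673 in siDyskerin, 21286, 22163 and 32305 in siGAR1, and 36953, 33665 and 34789 in siControl, where the third siGAR1 library was close to the controls. The log2 fold changes were -0.60 for E2F1, -0.64 for E2F2, -0.56 for RRM2 and -0.27 for CDC45, a subunit of the replicative helicase. The adjusted p of E2F1 was 0.0146 without siControl replicate 1 and 0.0101 without siControl replicate 3, that of E2F2 was 0.0108 without siControl replicate 1, and that of RRM2 was 0.0178 without siControl replicate 1 and 0.0145 without siControl replicate 3. GINS1 and CCNE2 passed in the pooled comparison without meeting the rule in both knockdowns, at -0.33 and -0.38. Of the 30 genes of G2 and mitosis, 0 were in the common response in edgeR and 4 in DESeq2, against 916 of all 18444 genes in DESeq2. In the pooled comparison 13 had an unadjusted p under 0.05, against 4718 of all genes, and AURKB, AURKA and KIF2C passed. AURKB, a mitotic kinase, was at -0.93 in siDyskerin and -0.02 in siGAR1.

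The start regions of E2F1 and E2F2 are shown because each holds the E2F site TTTGGCGC close to the start, on the strand of the gene. This motif and its other form TTTCCCGC were added after the values had been seen. Neither form was found in the same stretch of CCNE1, RRM2 or the histone genes H2AC15, H3C4, H3C10 and H2BC13. MDM2, which was higher in the common response, held TTTGGCGC. The capitals mark the match, which starts 20 bases before the start site in E2F1 and 42 bases before it in E2F2. The sequences lie at chr20:33686386-33686635 (E2F1, minus strand) and chr1:23531234-23531483 (E2F2, minus strand) on GRCh38.p14, from RefSeq.
E2F1: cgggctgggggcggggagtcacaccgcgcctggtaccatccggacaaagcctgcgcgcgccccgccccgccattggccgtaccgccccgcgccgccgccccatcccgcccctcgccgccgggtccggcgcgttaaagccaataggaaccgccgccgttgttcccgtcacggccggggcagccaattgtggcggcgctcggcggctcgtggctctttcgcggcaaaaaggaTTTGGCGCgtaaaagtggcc
E2F2: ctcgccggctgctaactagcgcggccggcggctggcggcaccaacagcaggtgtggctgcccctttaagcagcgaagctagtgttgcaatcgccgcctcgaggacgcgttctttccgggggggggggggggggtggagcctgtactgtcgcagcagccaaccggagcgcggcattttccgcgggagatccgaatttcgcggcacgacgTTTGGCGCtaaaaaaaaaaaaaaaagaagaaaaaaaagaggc
TTTGGCGC was found on either strand in 3 of 179 lower genes (1.68%), 4 of 256 higher genes (1.56%) and 0.891% of all 11219 promoters. TTTCCCGC was found in 2.23%, 1.17% and 2.22%.

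The replication-dependent histone genes lie mostly in clusters, are expressed in S phase and end in a stem-loop rather than a poly(A) tail. Of 40 tested, 9 were lower in the common response (22.5%, against 1.21% of all genes) and 0 higher, 38 of 40 had a log2 fold change below 0 and the median was -0.21. H2AC15, a histone H2A gene on chromosome 6, had 440, 484 and 450 normalised counts in siDyskerin, 295, 371 and 393 in siGAR1, and 811, 800 and 675 in siControl, a change of -0.93 (standard error 0.10, adjusted p = 5.5e-05). H3C4, a histone H3 gene, had 3638, 3595 and 3573 in siDyskerin, 2275, 2687 and 2648 in siGAR1, and 5138, 4954 and 4723 in siControl, a change of -0.71 (standard error 0.06). H3C4 was lowest in siGAR1 and the knockdowns differed by 0.51 (adjusted p = 0.00061). H3C10 (-0.55), H2BC13 (-0.48), H2AC12 (-0.39), H2AC7 (-0.38), H2AC13 (-0.37), H2BC11 (-0.32) and H2BC7 (-0.31) made up the rest. The genes of a histone family are alike in sequence, so a read may be counted in several of them. The 9 genes may therefore not be separate observations.

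**Figure D4:**
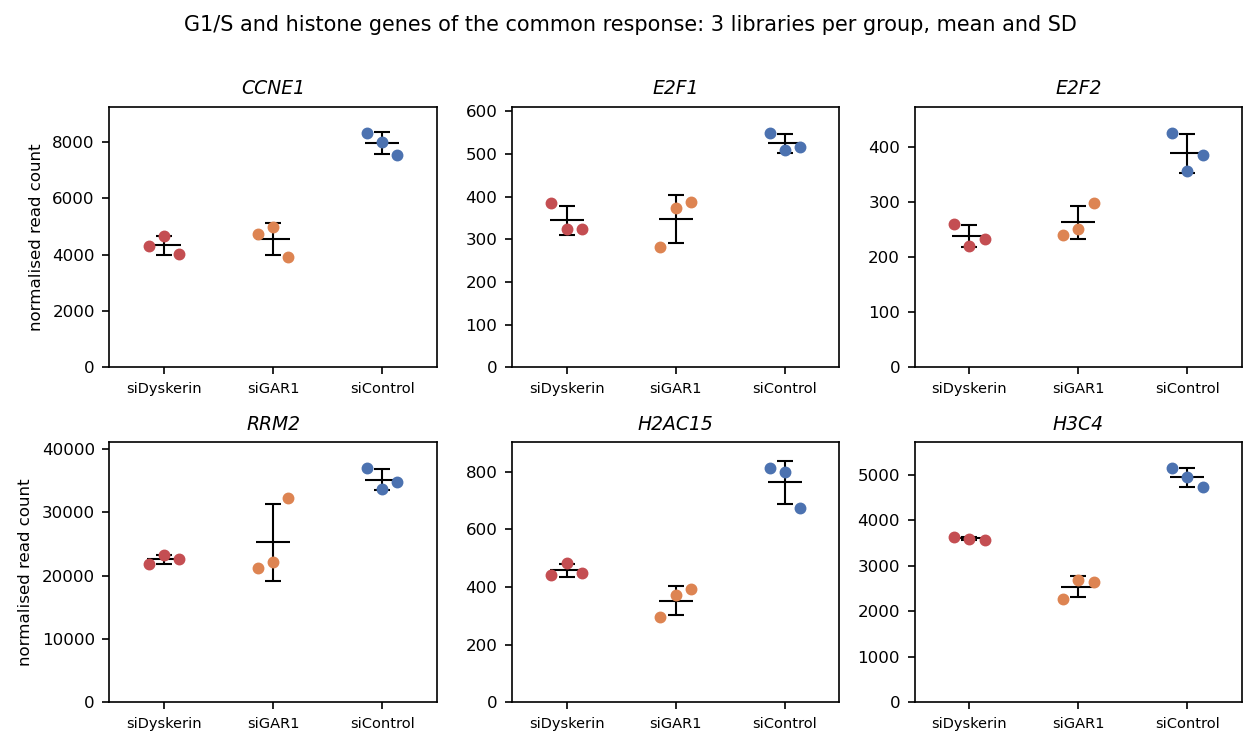
Normalised read counts (linear axes from 0) of 4 G1/S genes and 2 histone genes of the common response in siDyskerin, siGAR1 and siControl; points are libraries, bars are means and whiskers SD (n = 3). All knockdown libraries lie below the 3 siControl libraries, and for RRM2 the third siGAR1 library (32305) is near the lowest control (33665).

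The epidermal growth factor receptor was lower, and AREG and EREG, which encode 2 of its ligands, were higher. EGFR had 1504, 1547 and 1399 normalised counts in siDyskerin, 1826, 1753 and 1606 in siGAR1, and 2615, 2513 and 2707 in siControl, a change of -0.70 (standard error 0.06, adjusted p = 1.3e-05). AREG, amphiregulin, had 823, 848 and 754 in siDyskerin, 978, 1027 and 750 in siGAR1, and 452, 493 and 475 in siControl, a change of 0.87 (standard error 0.10, adjusted p = 0.00012). EREG, epiregulin, had 120, 143 and 165 in siDyskerin, 142, 156 and 160 in siGAR1, and 87.3, 72.6 and 81.0 in siControl, also 0.87 (standard error 0.14). Its adjusted p was 0.0134 without siControl replicate 2 and 0.0544 with counts rebuilt from TPM and length. They were the members that passed among 22 genes of AP-1 and MAPK feedback, whose median was 0.07. The shares were 9.09% higher and 4.55% lower, against 1.81% and 1.21% of all genes.

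Of 30 matrix and CCN proteins tested, 3 were higher and 1 lower in the common response. These were 10% and 3.33%, against 1.81% and 1.21% of all genes, and the list median was -0.0031 on the log2 scale. CCN3, described above, was among the higher genes. TIMP1 at 0.26 and COL12A1 at -0.25 were the weakest, since TIMP1 did not pass without any 1 library (adjusted p from 0.0105 to 0.08) and COL12A1 had 0.0115 and 0.0198 without siControl replicate 2 or 3. TGFBI, a matrix protein induced by TGF-beta, had 2526, 2831 and 2640 normalised counts in siDyskerin, 2652, 2830 and 2523 in siGAR1, and 3961, 4404 and 3866 in siControl, a change of -0.61 (standard error 0.06). TGFBI was the 1 lower gene among 19 TGF-beta targets tested, and 1 other was higher. These were 5.26% each way, against 1.21% lower and 1.81% higher over all genes, and the median of that list was 0.07.

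CSGALNACT2, which starts and extends chondroitin sulfate chains, had 1014, 1154 and 1076 normalised counts in siDyskerin, 1078, 1090 and 1080 in siGAR1, and 524, 553 and 523 in siControl. Its change was 1.02 in each knockdown (pooled standard error 0.07, adjusted p = 2.5e-06). GLCE, an epimerase of heparan sulfate, was at 0.44 (standard error 0.06). They were the 2 members in the common response of 29 genes of glycosaminoglycan synthesis, 6.90% against 1.81% of all genes. The list median was 0.03. CHPF passed at -0.58 but was at -1.09 in siDyskerin and -0.07 in siGAR1. EPHA4 was the 1 of 17 EPH receptors and ephrins and CLDN1 the 1 of 15 tight junction proteins in the common response. The shares were 5.88% and 6.67% higher, against 1.81% of all genes, and the list medians 0.04 and 0.01. In the Wnt list RNF43 was higher and WNT5A, a Wnt ligand, lower at -0.37, of 23 tested. The shares were 4.35% each way, against 1.81% higher and 1.21% lower over all genes. The adjusted p of WNT5A was 0.0219 and 0.0204 without siControl replicate 2 or 3.

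The 23 NF-kB targets had a list median of 0.12 (0.03 in siDyskerin and 0.28 in siGAR1). Of them, 3 were higher (13.0%) and 0 lower in the common response, against 1.81% and 1.21% of all genes. The higher genes were PTX3, TRAF1 and TNFAIP2, the last at 0.52 (standard error 0.08). BIRC3, an inhibitor of apoptosis, passed at 0.66 with 0.40 in siDyskerin and 0.92 in siGAR1. Of 29 type I interferon response genes, 0 passed in the pooled comparison in edgeR in either direction, and 1 passed in DESeq2. Their median was -0.09, and 8 had an unadjusted p under 0.05, against 4718 of all 18444 genes.

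Of 25 p53 targets, 3 were higher (12%) and 0 lower in the common response, against 1.81% and 1.21% of all genes. The median was 0.17, and 20 had log2 fold changes above 0, against 9285 of all 18444 genes. SESN2, outside the common response, passed as lower in the pooled comparison (-0.31), with -0.49 in siDyskerin and -0.14 in siGAR1. SESN1, a sestrin of the nutrient and stress response, had 1653, 1590 and 1779 normalised counts in siDyskerin, 1946, 1798 and 1747 in siGAR1, and 1023, 1228 and 1281 in siControl, a change of 0.57 (standard error 0.08, adjusted p = 0.00048). MDM2, the ubiquitin ligase of p53, was at 0.34 and GADD45A at 0.31. The calls of both depended on single libraries. The adjusted p of MDM2 was 0.0203 and 0.0239 without siControl replicate 1 or 2 and 0.0137 without siDyskerin replicate 3. That of GADD45A was 0.0117, 0.0281 and 0.0209 without siControl replicate 1, 2 or 3, 0.0119 without siDyskerin replicate 2 and 0.0103 without siGAR1 replicate 1.

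The lists closest to the function of the complex had 1 member each in the common response or 0. As shares of the members tested these were 10% lower for the H/ACA proteins and their assembly factors and 8.33% lower for the other pseudouridine synthases, against 1.21% of all genes, and 6.67% higher for RNA polymerase I and 2.78% higher for ribosome biogenesis, against 1.81%. HEATR1, a protein of the small-subunit processome, was the 1 of 36 ribosome biogenesis factors, whose median was 0.01. It had 15239, 16402 and 16269 normalised counts in siDyskerin, 15969, 16298 and 15230 in siGAR1, and 8249, 9341 and 9034 in siControl, a change of 0.84 (standard error 0.06, adjusted p = 1.7e-06) with 0.85 and 0.84 in the single knockdowns. POLR1F, a subunit of RNA polymerase I, was at 0.43 (standard error 0.07), the 1 of 15 genes of its list. PIH1D1, a part of the chaperone complex that assembles box C/D and H/ACA particles, had 4464, 4158 and 3771 normalised counts in siDyskerin, 5170, 4574 and 4009 in siGAR1, and 6055, 5952 and 6007 in siControl. It was at -0.46 (standard error 0.08) and was the 1 such member among the 10 genes of the list of H/ACA proteins and their assembly factors. RPUSD3, a mitochondrial pseudouridine synthase, was at -0.42 (standard error 0.07), the 1 of 12 other pseudouridine synthases. Of 9 telomerase and shelterin genes, 0 passed in the pooled comparison in edgeR or in DESeq2. In edgeR 1 had an unadjusted p under 0.05, against 4718 of all 18444 genes.

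Of 85 cytosolic ribosomal protein genes, RPL7L1 was higher (0.33) and RPL10A lower (-0.27) in the common response, and the list median was 0.01. The shares were 1.18% each way, against 1.81% higher and 1.21% lower over all genes. RPL7L1, a paralog of RPL7, had an adjusted p of 0.0117 without siControl replicate 3, and RPL10A had 0.0144, 0.0133 and 0.0108 without siControl replicate 1, 2 or 3. Of 27 translation factors, EIF4EBP2, an inhibitor of cap-dependent initiation, and EEF1D, an exchange factor of elongation, were lower. Their share was 7.41%, against 1.21% of all genes. EIF4EBP2 had 635, 657 and 608 normalised counts in siDyskerin, 763, 762 and 805 in siGAR1, and 984, 989 and 1050 in siControl, a change of -0.52 (standard error 0.07, adjusted p = 0.00027), and EEF1D was at -0.28 (standard error 0.05). TNRC6A, a scaffold of microRNA silencing, was the 1 of 13 small RNA silencing factors (7.69% higher, against 1.81% of all genes). It had 14448, 13745 and 13955 in siDyskerin, 13427, 13214 and 14201 in siGAR1, and 8790, 9474 and 9607 in siControl, a change of 0.57 (standard error 0.05, adjusted p = 1.8e-05). In HEATR1 and TNRC6A both knockdowns lay close together, at about the same distance from the control.

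The other lists had at most 2 members each in the common response. The shares were 5.26% higher and 5.26% lower for the unfolded protein response, 3.85% lower for ATF4 targets, 7.69% lower for glycolysis and hypoxia, 3.70% higher for SRF and YAP targets and 20% higher for the epithelial markers, against 1.81% higher and 1.21% lower over all genes. The unfolded protein response had EDEM1 higher (0.39) and the chaperone HSPA5 lower (-0.28) of 19 genes, with a median of -0.14, and the adjusted p of HSPA5 was 0.0118, 0.0142 and 0.0202 without siControl replicate 1, 2 or 3 and 0.0104 without siDyskerin replicate 3. Of 26 ATF4 targets SHMT2, a mitochondrial enzyme of serine metabolism, was lower (-0.30), and its adjusted p was 0.0203, 0.0104 and 0.013 without siControl replicate 1, 2 or 3. The median of the ATF4 list was 0.05 in siDyskerin and -0.33 in siGAR1. PFKP, a phosphofructokinase (-0.45), and ENO2, an enolase (-0.36), were lower of 26 genes of glycolysis and hypoxia. PFKP was at -0.25 in siDyskerin and -0.66 in siGAR1. With the 6 knockdown libraries as 1 group the adjusted p was 0.0566 for PFKP and 0.0162 for EDEM1. ENO2 did not pass without any 1 library other than siDyskerin replicate 1 and siGAR1 replicate 3 (adjusted p from 0.0135 to 0.0433). Of 27 SRF and YAP targets 1 passed as higher in the pooled comparison and 4 as lower (SRF, ACTG1, TAGLN and TPM1), all 4 outside the common response, and the list median was -0.0012. FHL2, the higher one, was at 0.30, with an adjusted p of 0.0153 and 0.0174 without siControl replicate 2 or 3. KRT18 was higher (0.54) of 5 epithelial markers, and lost its call without each library other than siGAR1 replicates 1, 2 and 3 (adjusted p from 0.0122 to 0.0529). The lists of heat shock proteins (18 tested), cholesterol synthesis (22), spliceosome and speckle proteins (37), nuclear-retained long noncoding RNAs (13), mitochondrially encoded mRNAs (13), osteoblast markers (6) and the 1 blood marker tested had 0 genes in the common response in edgeR, although 4 of these lists had members that passed in the pooled comparison. In DESeq2 2 genes of cholesterol synthesis and 1 osteoblast marker met its rule, against 916 of all 18444 genes. At an unadjusted p under 0.05 these lists had 5, 9, 6, 4, 1, 1 and 0 genes, in the same order. Of all genes 4718 had such a p.

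**Figure D5:**
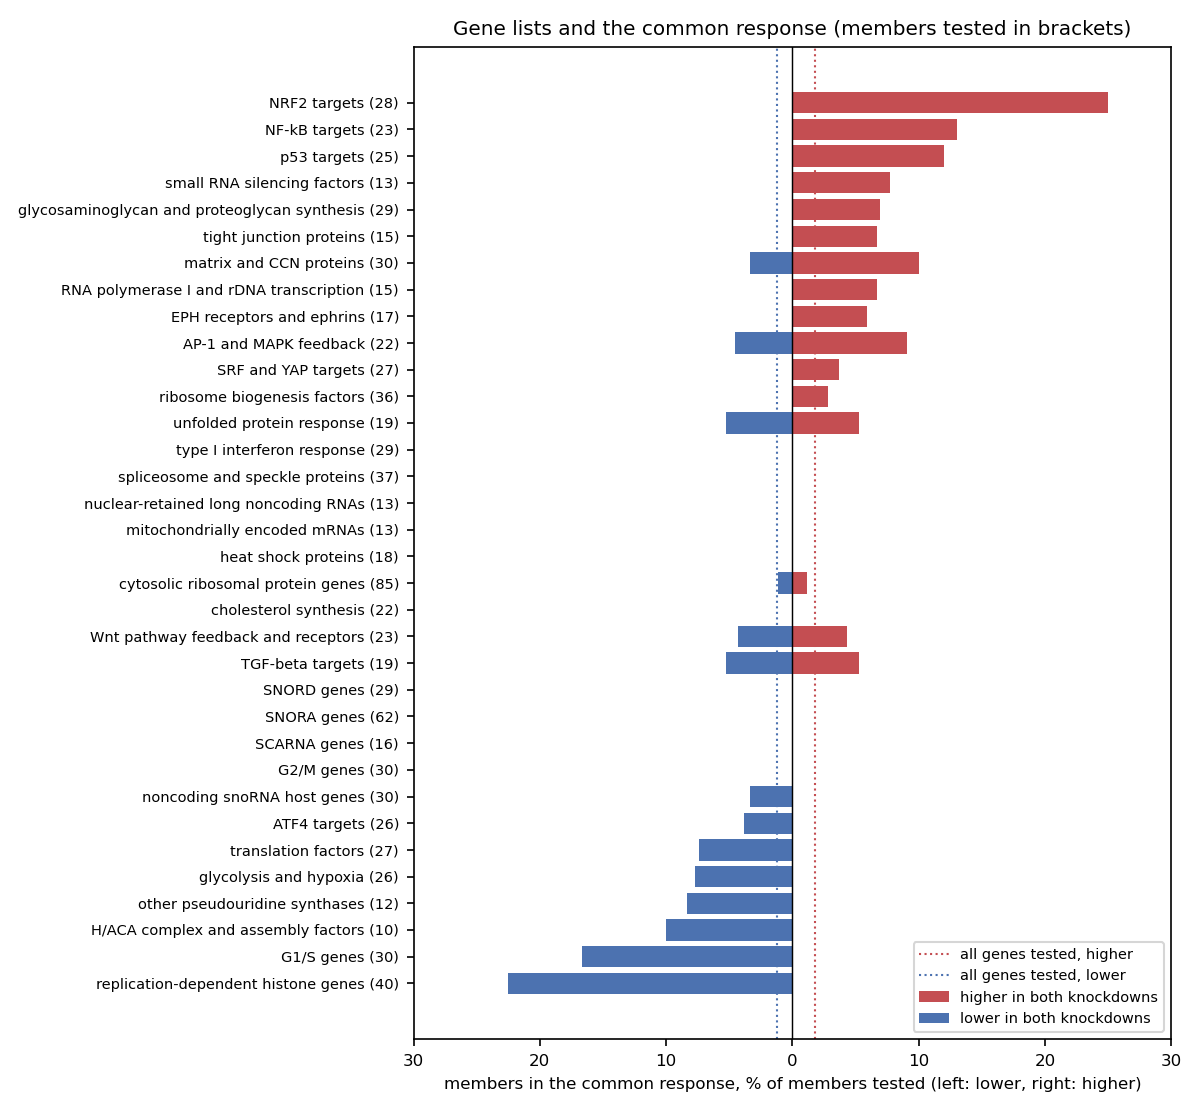
Share of each list's tested members that belonged to the common response, in percent (bars to the right are higher, bars to the left lower in both knockdowns), for lists with at least 10 tested members, with dotted lines at the shares of all genes tested (1.81% higher and 1.21% lower). NRF2 targets reach furthest to the right (25%), and replication-dependent histone genes furthest to the left (22.5%).

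The SNORA genes, which are box H/ACA RNAs, and the SCARNA genes moved unequally in the knockdowns. Of the SNORA genes 0 of 62 and of the SCARNA genes 0 of 16 belonged to the common response in edgeR (1 and 0 in DESeq2). The SCARNA genes were taken by symbol and not divided by box class, so their values may not be of box H/ACA RNAs alone. Of the 62 SNORA genes, 42 had an unadjusted p under 0.05 and 11 passed as lower in the pooled comparison, the median was -0.62, and all 62 had values below 0, but the median was -1.46 in siDyskerin and 0.17 in siGAR1. The pooled value is therefore mostly that of 1 knockdown. SNORA23, for example, had 161, 144 and 117 normalised counts in siDyskerin, 509, 401 and 367 in siGAR1, and 477, 472 and 479 in siControl. Of the SCARNA genes 5 had an unadjusted p under 0.05 and 2 passed as lower, with medians of -0.58 in siDyskerin and 0.02 in siGAR1. Of 29 SNORD genes, which belong to the box C/D class, 0 passed in edgeR (2 at an unadjusted p under 0.05) or in DESeq2. Over all genes tested, 4718 of 18444 had an unadjusted p under 0.05. Reads of these genes may also come from the introns of their hosts. Among 30 noncoding hosts of small nucleolar RNAs, SNHG3 was the 1 in the common response (3.33% lower, against 1.21% of all genes). SNHG3 was at -0.74, with -1.12 in siDyskerin and -0.36 in siGAR1. Without the transcripts that overlap short noncoding RNA genes, which include the SNORA73 genes within SNHG3, its log2 fold change was -0.19 and its adjusted p 0.064. With the 6 knockdown libraries as 1 group its adjusted p was 0.067.

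The knockdowns were also set against each other within the common response. Since each gene had to pass in both knockdowns, the rule left out genes with a very unequal change. At an adjusted p under 0.05 over all genes tested, 96 of the 557 genes (17.2%) differed between siDyskerin and siGAR1, beside 12.0% of all genes tested. The median of the mean log2 CPM was 5.00 in the 557 genes and 3.08 in all genes tested, and its part in these shares was not tested. Of the 96 genes, 71 had the larger change in siDyskerin and 25 in siGAR1. The genes that differed included CERK, by -1.19 on the log2 scale (standard error 0.08, adjusted p = 1.1e-06), FST by -0.39, SPOCD1 by 0.61, H3C4 by 0.51, TRIM16L by 0.42 and PFKP by 0.41, each siDyskerin minus siGAR1. SNHG3 differed by -0.76, with the limit given above on its overlapping transcripts. The count was 63 and 51 without siControl replicate 2 or 3, 59, 51 and 38 without siDyskerin replicate 1, 2 or 3, and 43 and 53 without siGAR1 replicate 1 or 2. A gene that missed this threshold is not shown to be equal in both.

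A pass in the pooled comparison was not by itself a common response. Of the 934 genes that passed, 377 fell outside it. Among these, 283 had an adjusted p under 0.05 in siDyskerin alone and 93 in siGAR1 alone, and 30 of all that passed had opposite signs in the knockdowns. SCARNA13 was the 1 gene with an adjusted p under 0.05 in both knockdowns and opposite signs. It had 595, 776 and 730 normalised counts in siDyskerin, 2425, 2194 and 2327 in siGAR1, and 1700, 1780 and 1785 in siControl. THBS1, thrombospondin, was at -1.08 in siDyskerin and -0.09 in siGAR1, and SPP1, osteopontin, at 1.52 and 0.34. SRF, a transcription factor of actin genes, was at -0.25 in siDyskerin and -1.18 in siGAR1, and MFAP1, a spliceosome protein, at 0.06 and -1.02. In each of these the mean of both knockdowns describes neither group.

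The genes of the common response are described by length and by read sum. The median length from start to end of the gene was 53.3 kb in the 315 higher protein-coding genes (quartiles 22.6 and 111 kb) and 31.2 kb in the 222 lower ones (12.3 and 83.0 kb), beside 36.0 kb in all 14175 (14.2 and 88.3 kb). The median of the mean log2 CPM was 5.17, 4.87 and 4.18 in the same order. Since a read is counted in each transcript it fits, these CPM values describe the counts that entered the test and not the abundance of one gene beside another. By this measure 1.90% of the genes from 0 to 2 log2 CPM belonged to the common response, 3.65% from 2 to 4, 4.86% from 4 to 6, 5.01% from 6 to 8 and 5.14% above 8. Genes below 0 log2 CPM are outside these bins but count in the shares of all genes tested, as do genes that are not protein-coding. Of the 14175 protein-coding genes tested, 537 were in the common response.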

How the data were processed

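Per the study's methods, nuclear RNA was depleted of ribosomal RNA (RiboCop), made into stranded CORALL libraries and sequenced as paired ends. The authors trimmed reads with Trim Galore 0.6.4, removed rRNA and tRNA reads with Bowtie2 2.4.1 and deposited, for each library, expected counts and TPM of each transcript, per the methods from Salmon 1.2.0 against GENCODE 27 on GRCh38. At least 99.997% of the counts above 0 in each library were whole numbers and nested longer transcripts never had fewer reads (41 pairs checked), unlike reads divided between transcripts. Of 200401 transcripts, 195887 had an identifier held by one of 58425 genes in GENCODE 44, and their counts were summed per gene and rounded; the other 4514 held 3.69 to 3.84% of the reads.

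The gene counts were tested in R 4.3.3 with edgeR 4.0.16 (TMM normalisation, filterByExpr, robust quasi-likelihood F-test, Benjamini-Hochberg adjustment) in 1 fit of all 9 libraries, where the pooled contrast weighted siDyskerin and siGAR1 equally. Normalised counts are scaled to the mean library, and the mean log2 CPM has a prior count of 2. Standard errors come from the fit. Alternatives used DESeq2 1.42.0 and counts rebuilt from the deposited TPM and effective lengths.

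The members, the 38 gene lists and the rules were chosen with earlier results of these data known. Named genes are the 4 core genes, the 14 highest and 14 lowest of the common response with separated groups and at least 1 log2 CPM, and up to 4 common members of each list by smallest p. Others (AKR1C2, NQO1, CDC45, further histones, the genes that passed outside the common response, KRT17, ENSG00000248112, SNORA23) were chosen after their values were seen. Lists use 1 gene per symbol. The main fit did not use replicate numbers to pair the samples. Some genes that these rules pick are counted in their lists but not reported here.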

Additional observations from a re-analysis of the deposited data

Results flagged for a closer look

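Both silenced genes differed between the knockdowns by construction: DKC1 by -2.99 (siDyskerin minus siGAR1, log2; adjusted p = 6.4e-12) and GAR1 by 2.89 (adjusted p = 1.1e-08). Among the genes named from the common response, the effect of siDyskerin differed from that of siGAR1 at an adjusted p under 0.01 in CERK (-1.19), SNHG3 (-0.76), H3C4 (0.51), TRIM16L (0.42), FST (-0.39), PFKP (0.41) and SPOCD1 (0.61).

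The 4514 transcripts that were not matched to a gene, and that no comparison used, were tested by themselves. Of 2567 that passed the count filter, 51 met the rule of the common response as higher (1.99%) and 43 as lower (1.68%), beside 1.81% and 1.21% of the genes. Their gene names are not given here.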

How the results depend on the processing

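Of the 68 genes named from the common response, 0 changed sign under any of the 17 alternatives, 35 kept an adjusted p under 0.01 in all of them, and 49 kept it without each library in turn; NOP10, which did not pass, ranged between -0.039 (without siControl replicate 3) and 0.073 (without siControl replicate 2). DESeq2 called 757 genes higher and 943 lower, with 417 lower genes in the common response and 181 genes that differed between the knockdowns. Without the count filter, 790 passed as higher and 994 as lower (94 and 74 past the threshold of 1), with 392 lower in the common response. With 1 transcript per gene, 804 passed as lower (16 past the threshold of 1), with 368 lower in the common response. Counts rebuilt from TPM gave 149 lower genes in the common response and 56 that differed. With the 6 knockdown libraries as 1 group, 162 passed as higher and 66 as lower, 1 of these past the threshold of 1, all were in the common response, and 23 differed. The cause of these shifts was not tested.

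Without 1 library, 220 to 463 genes passed as higher and 227 to 547 as lower, 26 to 36 and 8 to 19 of them past the threshold of 1. The common response then had 188 to 333 higher and 108 to 255 lower genes, and 38 to 94 differed between the knockdowns. With replicate number as a block, 502 genes passed as higher and 552 as lower, and 396 and 290 were in the common response. Deviations from the group mean correlated at -0.07 to 0.10 between samples of the same number and at -0.10 to 0.06 between others. Replicate 3 had the lowest read sum in every group. These values do not settle whether samples of the same number share a batch.

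Every call rests on the same 3 siControl libraries and on another siRNA product in the control. Genes of a few reads, and genes that share reads with paralogs, are the least certain, since intervals and standard errors do not cover reads counted in several transcripts.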
